A study of Mus musculus with 25 samples.

Results

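*Banp* was 1 gene of the 50559 listed in the count table, and 1 of the 21738 that had enough counts to be tested. It was selected on its measured values: its row of counts was read library by library for the size of the difference between Zeitgeber time (ZT) 20, in the dark, and ZT8, in the light, in both genotypes. That difference is therefore given below as a description, without a test. The mRNA came from cholinergic neurons of the spinal cord of 6-mo-old male mice kept under a light/dark cycle, with 6 mice in each of 4 groups. Controls were *ChAT-Cre;RiboTag fx/+* mice, and *ChAT-BKO* mice were *ChAT-Cre;RiboTag fx/+;Bmal1 fx/fx*. Both genotypes carried *ChAT-Cre* and 1 floxed *RiboTag* allele, so that Cre, driven from the *ChAT* locus, switched on the hemagglutinin tag of the ribosomes and, in *ChAT-BKO*, also removed *Bmal1* in the same cells. Ribosome-bound RNA was immunoprecipitated (IP) through the tag from 1 spinal cord for each library, and 1 further library held pooled input RNA of wild-type and knockout cord.

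BANP (BTG3-associated nuclear protein, also called SMAR1) is a nuclear protein with a BEN domain, a DNA-binding fold. It is known to bind a palindromic, CpG-containing element in unmethylated CpG island promoters and to keep such genes active, and it has also been described as a nuclear matrix protein that works with the HDAC1 and SIN3 corepressors and with p53. The circadian clock is driven by the BMAL1 and CLOCK proteins, which activate *Per*, *Cry*, *Nr1d* and PAR-bZIP genes such as *Dbp*.

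The *Banp* gene (ENSMUSG00000025316.16) lies on the plus strand of mouse chromosome 8, at chr8:121949750-122029258 of GRCm38, and spans 79.5 kb. Its 16 annotated transcripts, of which 8 are protein coding, have 6632 bases of exon between them. The counts are per gene, so values of single transcripts were not analysed here. Among genes that overlap it, the antisense transcript *Gm27011* has 1 exon that overlaps exon sequence of *Banp*, and had 12 counts over the 24 IP libraries, against 5438 for *Banp*. The pseudogene *Gm17709*, on the opposite strand within an intron, had 91 counts. The kit keeps strand, but whether the counting used it is not given in the sources used here.

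The 3 promoter windows that follow are shown because they carry the core of the element that BANP is known to bind and belong to the 3 core-bearing genes that passed a test in these data. They are from RefSeq promoters on GRCm38, read 5′ to 3′ on the gene's strand, with the core in capitals. The *Uhrf2* window is chr19:30030430-30030459 on the plus strand, upstream of the start. The *Zfc3h1* window is chr10:115384935-115384964 on the plus strand and the *Adcy2* window is chr13:68999520-68999549 on the minus strand, and both span the start.
Uhrf2: cccgcgtggatCTCGCGAGatccgggttgg
Zfc3h1: acagaggctttCTCGCGAGgcggaagagca
Adcy2: tggctcccgccCTCGCGAGcggtggtggcg

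*Banp* was lowest in *ChAT-BKO* neurons at ZT8 and highest in *ChAT-BKO* neurons at ZT20, with both control groups between them. Levels are CPM, the counts of a gene for each 1000000 counts of its library, scaled by TMM, which corrects for library size and composition. In controls at ZT8, the lowest library was at 9.68 CPM, the median was 12.0 and the highest was 17.6. In controls at ZT20, the lowest was at 18.9, the median 23.1 and the highest 27.8. All 6 dark libraries of the controls were thus above all 6 light ones, with a narrow gap between the lowest dark and the highest light library, a ratio of 1.07. In *ChAT-BKO* at ZT8, the lowest library was at 7.10 CPM, the median 8.92 and the highest 13.6. In *ChAT-BKO* at ZT20, the lowest was at 22.5, the median 25.5 and the highest 30.4. Here the libraries of both times were also separate, with a wider gap, a ratio of 1.66 between the lowest dark and the highest light library. Such a separation in both genotypes was found for 0.268% of the 10429 genes with a mean of at least 5 CPM.

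**Figure D1:**
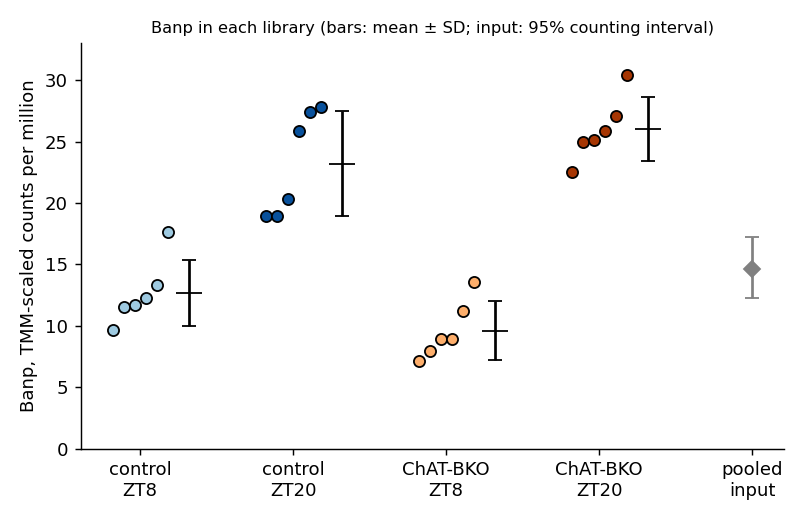
*Banp* in TMM-scaled CPM (y axis) for each IP library (points) in the 4 groups (x axis), with mean ± SD (n = 6) beside each group, and the pooled input with its 95% counting interval. The ZT20 libraries lie between 18.9 and 30.4 CPM and the ZT8 libraries between 7.10 and 17.6 CPM.

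The group means were 12.7 ± 2.68 CPM (SD, n = 6) in controls at ZT8 and 23.2 ± 4.29 CPM at ZT20. In *ChAT-BKO* they were 9.60 ± 2.38 CPM at ZT8 and 26.0 ± 2.62 CPM at ZT20. In the order of the levels, *ChAT-BKO* at ZT8 and controls at ZT8 overlapped, and so did controls at ZT20 and *ChAT-BKO* at ZT20. The other neighbours in that order, controls at ZT8 and controls at ZT20, did not.

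The difference between times, fitted by edgeR, was a log2 fold change of 0.89 (SE 0.13) in controls, a 1.85-fold higher level at ZT20. In *ChAT-BKO* it was 1.40 (SE 0.12), or 2.65-fold. The *ChAT-BKO* difference exceeded that of the controls by 0.52 (SE 0.19) on the log2 scale, and since both differences chose the gene, no p-value is given for this. Each of the 36 pairs of a dark and a light library was higher in the dark in controls, and likewise in *ChAT-BKO*.

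Over the whole table, few genes passed the test between times. At an adjusted p under 0.05 (edgeR quasi-likelihood test, Benjamini-Hochberg over all genes), 0.0966% of the genes tested were called higher and 0.0184% lower at ZT20 in controls, and 0.230% were higher and 0.0552% lower in *ChAT-BKO*. None was called for the difference of both time effects (0%), where 848 genes had an unadjusted p under 0.05. DESeq2 and limma voom also called 0, while edgeR with the length slope as covariate called 1. The length slope is 1 value per library, the slope of log2 CPM on log2 exon length over genes with a mean of at least 5 CPM.

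Counting error was smaller than the spread between mice. *Banp* had 75 to 226 counts per library in controls at ZT8 and 201 to 598 at ZT20, and 29 to 227 and 117 to 576 in the *ChAT-BKO* groups. Over the 4 groups in the order controls at ZT8 and ZT20, then *ChAT-BKO* at ZT8 and ZT20, the coefficient of variation between libraries was 21.2%, 18.5%, 24.8% and 10.1%. Counting alone would give 9.15%, 5.66%, 10.8% and 7.08%. The library with the lowest count, 29 in *ChAT-BKO* at ZT8, had 7.10 CPM with an exact 95% Poisson interval of 4.75 to 10.2, which covers counting error only. That interval ended below every ZT20 library of either genotype. The interval of the highest ZT8 library, replicate 3 of controls at 17.6 CPM, was 14.6 to 21. It covered the lowest ZT20 value of the controls, 18.9 CPM.

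**Figure D2:**
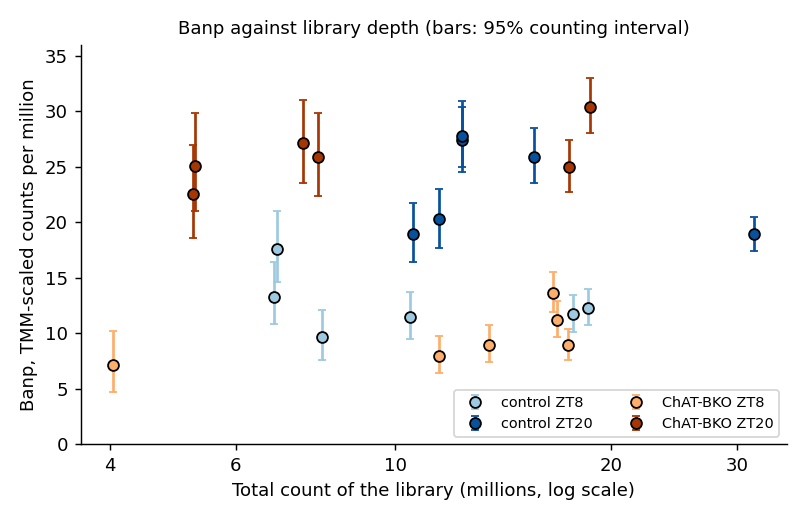
*Banp* in TMM-scaled CPM (y axis) against the total count of each IP library (x axis, log scale), coloured by group, with 95% Poisson intervals as bars. The points of light and dark libraries stand apart, while the bars of some control libraries of both times overlap. Totals run from 4.04 M, a light library, to 31.7 M, a dark library (M, 1000000 counts).

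The total counts ranged from 4.04 M to 31.7 M per IP library, with medians of 9.21 M and 12.4 M in controls at ZT8 and ZT20, and 15.1 M and 7.62 M in *ChAT-BKO*. The median depth was thus greater in the dark in controls and less in *ChAT-BKO*, and the part of depth in the *Banp* difference was not tested. All 7 cholinergic markers were above the pooled input (median log2 ratio 2.82), and their summed level was 4230 to 4880 CPM over all IP libraries. None of the astrocyte, oligodendrocyte, microglia, endothelial, excitatory neuron or skeletal muscle markers was above input, and 1 of 5 inhibitory neuron markers was. *Arntl*, the listed symbol of *Bmal1*, was at 6.22 to 9.99 CPM in controls at ZT8 and 1.97 to 3.30 in *ChAT-BKO*. It was at 7.60 to 10.9 CPM in controls at ZT20 and 1.35 to 2.80 in *ChAT-BKO*, so the genotypes did not overlap at either time. The summed level of 5 endothelial markers was 7.26 to 11.4 CPM in controls at ZT8 and 9.93 to 18.6 at ZT20, and 6.85 to 12.2 and 10.3 to 14.7 in *ChAT-BKO*. It was thus low but higher on balance in the dark, as *Banp* was. The log2 fold changes of the 5 between times ran from -0.01 to 0.71 in controls and -0.12 to 0.75 in *ChAT-BKO*, highest for *Cldn5* in both. Of the 5, 0 were called between times, where 0.0966% of all genes were called higher in controls and 0.230% in *ChAT-BKO*. Other lists also differed between times, with 0 of their genes called. The median log2 fold change was 0.19 in controls and 0.03 in *ChAT-BKO* for inhibitory neuron markers, and 0.09 and 0.18 for astrocyte markers. For skeletal muscle markers it was -1.47 in controls and 0.75 in *ChAT-BKO*. The medians of the remaining marker lists lay between -0.15 and 0.05. The part of all these markers in the *Banp* difference was not tested.

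Between genotypes, *Banp* was lower in *ChAT-BKO* on average in the light and higher in the dark, with overlapping groups at both times. The gap between these 2 differences is the difference of the time effects, which the selection used, so each is given without a test. At ZT8, *Banp* was at 9.60 CPM in *ChAT-BKO* against 12.7 in controls, a log2 fold change of -0.34 (SE 0.15). The *ChAT-BKO* library was higher in 6 of 36 pairs. At ZT20 it was at 26.0 CPM against 23.2, a log2 fold change of 0.18 (SE 0.11), and the *ChAT-BKO* library was higher in 22 of 36 pairs.

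The effect of genotype over both times weights the times equally and was tested. Its log2 fold change was -0.08 (SE 0.10, 95% interval -0.28 to 0.12), with an adjusted p of 0.941 (edgeR). *Banp* was thus not called in this comparison, in which 0.653% of genes were. At ZT20, 6 of 12 skeletal muscle markers were called higher in *ChAT-BKO* (edgeR), where 0.189% of all genes were. The summed level of the 12 was 76.7 to 171 CPM against 60.8 to 95.8 in controls. At ZT8, 0 were called, and the summed level was 57.3 to 254 CPM in *ChAT-BKO* and 58.0 to 197 in controls. The part of these markers in the *Banp* values was not tested.

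Compared with the 1 input library, the group means of *Banp* were lower in the light and higher in the dark. The pooled input had 146 *Banp* counts, or 14.6 CPM on a scale shared with the IP libraries (95% Poisson interval 12.3 to 17.2). On that scale, the mean of controls at ZT8, 12.9 CPM, was within this interval, so it was not set apart from input. The mean of *ChAT-BKO* at ZT8, 9.72 CPM, was below it. The log2 ratio of the IP mean to the input was -0.18 in controls at ZT8 and 0.69 at ZT20, and -0.59 and 0.85 in *ChAT-BKO*. Without the scaling, the input was at 19.7 CPM and the ratios were -0.65, 0.24, -1.04 and 0.40 in the same order, so their signs were the same. There was 1 input library, taken from pooled tissue whose time is not given in the sources used here. In IP of tagged ribosomes, fewer cells and less RNA per cell cannot be told apart.

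The mean *Banp* level over the IP libraries was 2.69 CPM per kb of exon, at percentile 57.6 of the 18937 tested genes with a known length (median 1.62). Within the BEN family, *Nacc2* (54.4 CPM per kb), *Bend6* (48.6) and *Nacc1* (24.2) were above it, while *Bend5* and *Bend7* (2.09 each), *Bend3* (0.619) and *Bend4* (0.437) were below.

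Other genes whose libraries were separate in the same way were few, and their differences were smaller. Of 10429 genes with a mean of at least 5 CPM, 28 (0.268%) had all ZT20 libraries above all ZT8 libraries in both genotypes, and 10 had the reverse. This count includes *Banp*, and was chosen on time, so it is a description. By the smaller of its 2 differences in mean log2 CPM, *Banp* (0.87 in controls, 1.45 in *ChAT-BKO*) was first of the 28. Next came *Uhrf2*, a ubiquitin ligase that binds modified cytosine (0.60 and 0.57), and *Xbp1*, a transcription factor of the unfolded protein response (0.53 and 0.58). After them came the mitochondrial rRNA *mt-Rnr2* (0.53 and 0.60), which was far below input, with a log2 ratio of IP to input of -3.32. The splicing genes *Srek1* (0.58 and 0.53), *Snrnp48* (0.52 and 0.65), *Tra2a* (0.56 and 0.48) and *Prpf38b* (0.48 and 0.46) followed, with *P4ha1*, a collagen prolyl hydroxylase (0.52 and 0.70), and *Zbtb40* (0.48 and 0.57). Across all 10429 genes, *Banp* ranked 4th by the difference in controls and 6th in *ChAT-BKO*. By the smaller difference of genes with the same direction in both genotypes, up or down, it ranked 3rd. Genes above it did not separate in both genotypes.

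**Figure D3:**
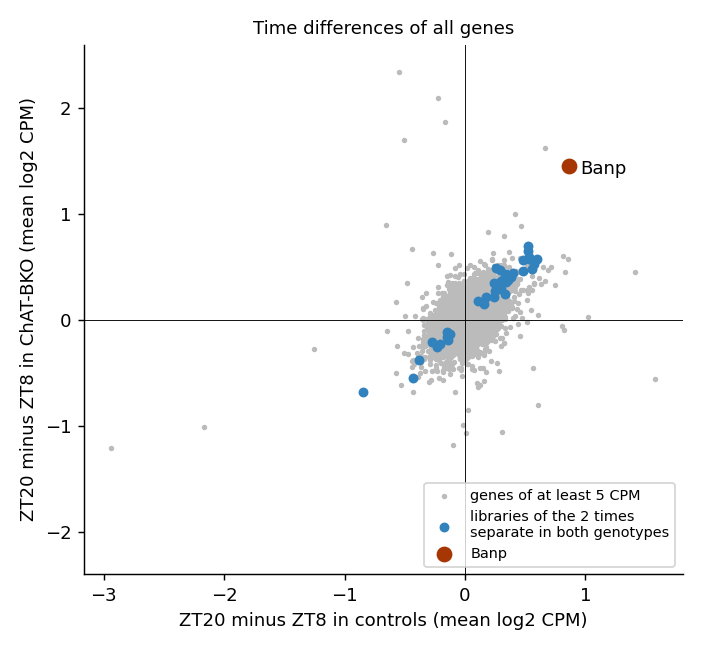
Difference in mean log2 CPM between ZT20 and ZT8 in controls (x axis) and in *ChAT-BKO* (y axis) for 10429 genes of at least 5 CPM (grey), with genes whose libraries of the 2 times were separate in both genotypes in blue and *Banp* in brown. *Banp* lies at 0.87 and 1.45, above the other separated genes on both axes.

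*Uhrf2* was at 12.3 to 19.2 CPM in controls at ZT8 and 23.2 to 28.4 at ZT20. In *ChAT-BKO* it was at 14.5 to 20.1 CPM at ZT8 and 23.6 to 28.1 at ZT20. *Xbp1* was at 27.3 to 37.4 CPM in controls at ZT8 and 41.0 to 53.5 at ZT20, and its *ChAT-BKO* ranges were 27.9 to 35.1 and 45.1 to 51.3. The log2 fold change between genotypes over both times was -0.01 (SE 0.06) for *Uhrf2* and was not called for either gene.

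The genes most like *Banp* were found by Pearson's r of log2 CPM over the 24 IP libraries, which share their time and genotype groups. They were *Xbp1* (r = 0.89), the RNA-binding genes *Acin1* (0.88), *Ythdc1* (0.88) and *Luc7l* (0.87), the endoplasmic reticulum chaperone *Pdia4* (0.88), and *Hexim1* (0.88), an inhibitor of transcription elongation. The genes with the lowest r were *Crmp1* (-0.85), *Arfgap1* (-0.82) and *Chpf2* (-0.82). After the 4 group means were removed, r fell to 0.36 for *Xbp1*, 0.43 for *Pdia4* and 0.03 for *Luc7l*. None of these 6 genes was then among the 6 most like *Banp*, and 3 of them were by Spearman's rho.

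**Figure D4:**
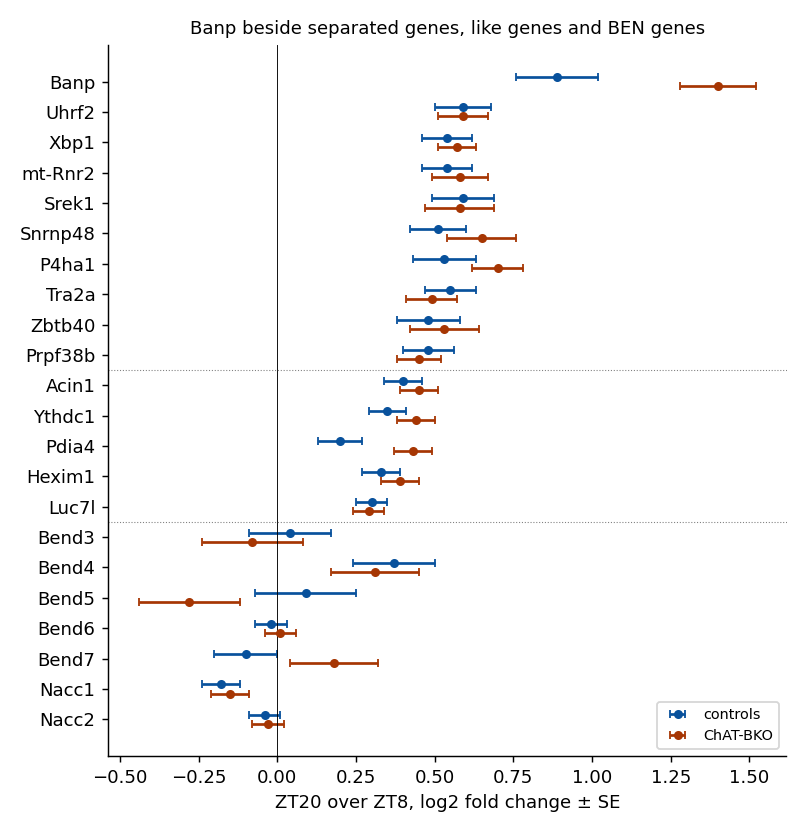
log2 fold change from ZT8 to ZT20 with its SE (x axis, edgeR) in controls (blue) and *ChAT-BKO* (brown) for *Banp* and the next 9 separated genes (top), other like genes (middle) and 7 BEN family genes (bottom). *Banp* is at 0.89 and 1.40, and the BEN family genes lie between -0.28 and 0.37.

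In the edgeR test without covariates, none of the listed genes related to BANP was called between times or genotypes. Over all genes, that test called 0.0966% higher and 0.0184% lower at ZT20 in controls, and 0.230% and 0.0552% in *ChAT-BKO*. Between genotypes it called 0.184% at ZT8, 0.230% at ZT20 and 0.653% over both times. With shares this low, 0 calls in such short lists says little about their genes. With the length slope as covariate, 1 BEN family gene was called lower at ZT20 in each genotype. In that setting, 1 CpG factor was called higher at ZT20 in *ChAT-BKO*, and 1 gene described as repressed by BANP higher in *ChAT-BKO* at ZT8. Over all genes, that setting called 157 lower at ZT20 in controls and 207 in *ChAT-BKO*. It called 294 higher at ZT20 in *ChAT-BKO*, and 110 higher in *ChAT-BKO* than in controls at ZT8. Of 7 tested BEN family genes, the median difference between times was -0.02 in controls and -0.03 in *ChAT-BKO*, beside a median of 0.00 over all genes. *Bend4* had the highest value in controls, 0.37 (SE 0.13, edgeR adjusted p = 0.422), with 3.88 CPM at ZT8 and 5.02 at ZT20. Of 8 partners, among them *Hdac1*, *Sin3a* and *Trp53*, 0 were called in any comparison, with medians of -0.05 and 0.00 between times. Of 6 factors that bind CpG-rich promoters, such as *Nrf1* and *Cxxc1*, 0 were called. Of 3 genes described as repressed by BANP, 0 were called in that test, and *Ccnd1*, which encodes cyclin D1, had a log2 fold change of 0.19 (SE 0.05) over both times with an adjusted p of 0.0528 (edgeR). Over both times, 1 of these 3 genes was called by DESeq2, with edgeR's own filter on low counts, with the replicate number as a block and with the length slope. Over all genes, these settings called 158, 129, 101 and 276 higher, in the same order. Of the 3 genes, 1 was also called without replicates 2 or 5 of *ChAT-BKO* at ZT20 or replicate 6 of controls at ZT20.

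By edgeR, 0 of the 6 tested genes near *Banp* were called. Over all genes, 0.0966% were called higher and 0.0184% lower at ZT20 in controls, and 0.230% and 0.0552% in *ChAT-BKO*. Between genotypes over both times, 0.653% were called. With the length slope as covariate, 1 of the 6 was called lower at ZT20 in controls, where 157 of all genes were. Of the 16 other annotated genes within 250 kb, 6 were tested, and their median difference between times was -0.17 in controls and -0.09 in *ChAT-BKO*. Among them, *Gm27011* and *Gm17709* had only 12 and 91 counts, with log2 fold changes of -0.44 (SE 1.1) and -0.59 (SE 0.47) in controls. *Klhdc4* was at -0.02 (SE 0.09) and *Zfp469* at 0.14 (SE 0.26). The amino acid transporter *Slc7a5* was at 44.0 CPM in controls at ZT8 and 37.3 at ZT20, a log2 fold change of -0.23 (SE 0.07, edgeR adjusted p = 0.368). *Jph3*, a junctophilin, was at 193 and 179 CPM, a log2 fold change of -0.11 (SE 0.05).

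The core CTCGCGAG, which reads the same on both strands, was in 0.919% of 32851 promoters (250 bases before to 50 after the start) and in 1.04% of 27025 genes with a promoter entry. The 10-base form TCTCGCGAGA, which contains the core, was in 0.466% of promoters. Of 262 tested genes with the core, 1 was called higher at ZT20 in controls (0.382%, against 0.0966% of all genes) and 2 in *ChAT-BKO* (0.763%, against 0.230%), and the median difference was 0.00 and -0.01, as over all genes (0.00 and 0.00). *Uhrf2*, whose window above holds the 10-base form, was called in both genotypes, with 0.59 (SE 0.09, edgeR adjusted p = 0.00989) in controls and 0.59 (SE 0.08, adjusted p = 0.00129) in *ChAT-BKO*. *Zfc3h1*, which encodes a zinc finger protein of nuclear RNA decay, was called in *ChAT-BKO*, with 0.50 (SE 0.10, edgeR adjusted p = 0.0446), and had 0.46 (SE 0.10, adjusted p = 0.122) in controls. The *ChAT-BKO* count fell to 1 without each of 8 of the 12 libraries (replicates 1, 2, 3, 4 and 6 at ZT8, and 2, 5 and 6 at ZT20). Between genotypes, 0 core genes were called at either time and 1 over both times, the adenylyl cyclase gene *Adcy2*, with -0.23 (SE 0.04, edgeR adjusted p = 0.00251), at 108 against 92.1 CPM at ZT8.

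Clock genes were called mainly between genotypes. Of 20 clock genes, 10 were called between genotypes at ZT8 (6 higher and 4 lower in *ChAT-BKO*), where 0.184% of all genes were, and 8 at ZT20 (5 higher and 3 lower), where 0.230% were, while 1 was called between times in each genotype. That gene was *Dbp*, which was at 17.5 ± 3.17 CPM in controls at ZT8 and 9.66 ± 1.66 at ZT20 (SD, n = 6). Its log2 fold change was -0.86 (SE 0.12, edgeR adjusted p = 0.0074) in controls and -0.72 (SE 0.11, edgeR adjusted p = 0.00249) in *ChAT-BKO*. *Arntl* was lower in *ChAT-BKO* by a log2 fold change of -1.64 (SE 0.16) at ZT8 and -2.08 (SE 0.16) at ZT20, with adjusted p = 1.56e-05 and 1.98e-07 (edgeR). The median over the 20 genes was 0.03 and 0.06 between genotypes and 0.02 and 0.01 between times.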

How the data were processed

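Ribosome-bound mRNA of spinal cord cholinergic neurons was measured by RNA-seq in 24 IP libraries and 1 pooled input. According to the submitters' processing notes, reads were aligned to mm10 with STAR 2.7.5 and quantified with RSEM. The authors deposited the resulting expected counts per gene, not normalized. The 6.11% of values that were not whole were rounded, and 0 columns were left out.

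Genes with at least 10 counts over the 24 IP libraries (21738) were tested in R 4.3.3 with edgeR 4.0.16 (TMM, quasi-likelihood test, Benjamini-Hochberg adjustment, threshold 0.05, two-sided). Each comparison was fitted on its own 12 libraries, and the effect of genotype over both times and the difference of both time effects on 24. For *Banp*, a p is given over both times only, since the contrasts at 1 time are not independent of its selection. log2 CPM used a prior count of 2. The steps were tested on simulated data. Alternatives used DESeq2 1.42.0 and limma 3.58.1.

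Libraries were labelled biological replicates, 1 mouse each, and all were processed on the same day. The named genes were *Banp*, members of gene lists, genes within 250 kb, the 6 with the highest and 4 with the lowest r, the 10 separated genes with the largest smaller difference, core genes called (up to 5 with the smallest adjusted p in each comparison) and *Arntl*. *Banp* and all lists were chosen with earlier results of these data known. A gene that the rule names is not reported here. Positions are from GENCODE M21 on GRCm38, the same assembly as mm10.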

Additional observations from a re-analysis of the deposited data

Results flagged for a closer look

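None of the 4 groups held a *Banp* library far from the others by Dixon's test. Among 84 groups of 6 libraries, 4 for each of 21 named genes, 3 held 1 library whose gap to its neighbour was a large part of the group's range, and chance alone gives about 1 in 20. *Uhrf2* was at 12.3 CPM in replicate 1 of controls at ZT8, where the next library was at 16.9. *Snrnp48* was at 20.8 CPM in replicate 2 of controls at ZT20, where the next was at 17.7. *Tra2a* was at 66.3 CPM in replicate 5 of *ChAT-BKO* at ZT20, where the next was at 54.5.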

How the results depend on the processing

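The *Banp* differences kept their direction under every alternative run, and the tested one, between genotypes over both times, was called under none. Between times they were 0.88 to 0.89 in controls and 1.36 to 1.45 in *ChAT-BKO* over 8 alternatives each, and 0.83 to 0.98 and 1.34 to 1.53 without each library in turn. Between genotypes they were -0.37 to -0.32 at ZT8, 0.15 to 0.20 at ZT20 and -0.10 to -0.06 over both times, and -0.48 to -0.24, 0.11 to 0.24 and -0.14 to -0.03 without each library. The adjusted p over both times was 0.847 to 1.00. With the replicate block, the values were -0.35 at ZT8, 0.17 at ZT20, 0.89 between times in controls and 1.45 in *ChAT-BKO*. The replicate numbers were not taken as pairs, since correlations of same-numbered libraries ran from -0.37 to 0.59, and 1 or 2 of 6 libraries correlated best with their own number.

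Counts over all genes moved, and the cause was not tested. Between times in controls, 21 higher and 4 lower became 73 and 54 by DESeq2, 62 and 24 with the replicate block, 197 and 157 with the length slope, and 7 and 1 at an adjusted p under 0.01. In *ChAT-BKO*, 50 and 12 became 140 and 85, 38 and 9, 294 and 207, and 19 and 5, and 104 and 36 with all 24 libraries. Between genotypes, 28 and 12 at ZT8 became 48 and 22 by DESeq2 and 110 and 51 with the length slope, 41 and 9 at ZT20 became 78 and 13 and 124 and 46, and 103 and 39 over both times became 158 and 67 and 276 and 134. Without 1 library, the counts higher in the dark were 9 to 25 in controls (fewest without ZT20 replicates 3 or 6) and 25 to 46 in *ChAT-BKO* (fewest without ZT8 replicate 1). Core genes higher in the dark were 5 and 7 by DESeq2 and 8 and 9 with the length slope, in controls and *ChAT-BKO*. The 10-base form was in 142 genes against 280 for the core, and a minimum of 1 CPM gave 29 separated genes against 28.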
